A study of Mus musculus with 12 samples.

Results

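The comparison set 3 libraries of jejunal epithelium labelled as a knockout of Fzd5 (Fzd5KO) at day 1 against 3 control libraries (Ctrl) of the same day, 6 of the 12 libraries in the series. The other 6, the same genotypes at day 3, entered the estimate of the spread between libraries. They also entered the quantile normalization and median-of-ratios scaling used as alternatives below. Their own values are compared only in the closing sections. All were mouse intestinal epithelial cells of the jejunum, the middle stretch of the small intestine, measured by bulk sequencing of total RNA. Not stated are the strain, age and sex of the animals, the allele or Cre driver behind the knockout, any agent given, and the event that starts the count of days. Nor do the labels state that replicates came from separate animals. The p-values therefore describe spread among the libraries and may reflect technical variation alone.

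Genes entered the comparison with a level of at least 1 TPM (the unit of the deposited table, a share of a fixed total corrected for transcript length) in at least 3 of the 6 libraries. Of 55421 genes in the deposited table, 13636 met this, and they held 99.7 to 99.8% of the TPM of each library. At 1 TPM or more in all 6 libraries were 12336 of them, while 142 passed only through the 3 control libraries and 13 only through the 3 knockout libraries. Genes of these last groups had to differ and support nothing. Where a list of named genes below holds called ones, its counts without them are given. For gene classes, and for families gathered by symbol such as the solute carriers, no such counts were made. For the 27 genes just inside the limit the third-highest library stood at 1.0 TPM, and for the 29 just outside at 0.99 TPM. Changes are differences of log2(TPM + 1), knockout minus control, ± SE, which understate the change of low genes, and a gene was called where limma's adjusted p over all 13636 genes was under 0.05.

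Frizzled receptors bind secreted Wnt ligands together with the co-receptors Lrp5 and Lrp6, which stabilizes beta-catenin and turns on its target genes in the nucleus. In the small intestine this signal is strongest at the crypt base, where it maintains the Lgr5-expressing stem cells and the Paneth cells beside them. Daughter cells divide in the crypt, become absorptive or secretory, and are shed at the villus tip, so crypt, villus and villus tip each express their own genes. In bulk tissue, fewer cells of a type and less RNA per cell cannot be told apart.

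Since the values are TPM, sequencing depth is unknown. A library detected 21873 to 24467 genes above 0, most of all Ctrl replicate 1. That library stood apart from its group: its log2 values differed from those of Ctrl replicates 2 and 3 with an SD of 0.407 and 0.421 over the tested genes, against 0.338 between replicates 2 and 3 and 0.290 to 0.331 among the knockout libraries. In it 13 genes lay more than 10-fold above both other control libraries and took 1.76% of its TPM, most of it in the predicted gene Gm10800, named after its value was seen (11950 TPM against 7.29 to 9.37 TPM in the other 5 libraries). Knockout libraries stood apart for single genes and classes too. Genes for rRNA took 0.0057% of the TPM of Fzd5KO replicate 1, against 0.37 and 0.53% in replicates 2 and 3. The controls held 0.31 to 0.53%. The mitochondrial gene mt-Co2, named after its value was seen, lay more than 10-fold lower in Fzd5KO replicate 2 than in the other knockout libraries. For the labelled tissue, all 29 absorptive enterocyte, 22 Paneth and 24 goblet cell markers passed the limit. Of 12 pancreatic acinar markers 6 were at 0 in all 6 libraries, but 2 passed the limit. That list summed to 82.3 to 85.6 TPM in the knockout and 90.1 to 120 TPM in the controls, so acinar transcripts were not absent.

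At day 1 the knockout epithelium had lower levels of crypt-base stem cell, goblet cell, nutrient transporter and brush border hydrolase genes and higher levels of a smaller set that includes nucleoside-handling genes of the villus tip. With the deposited TPM 316 genes were higher and 3336 lower, 2.32% and 24.5% of those tested (26.8% in either direction), and the median gene lay at −0.14. The groups did not overlap for 634 higher genes (4.65%) and 5469 lower ones (40.1%), 44.8% together. Most changes were small: the median size of a called change was 0.31 in each direction, and 16 higher and 53 lower genes passed 1 on the log2 scale. These last counts include genes tested through 1 group only. Leaving those out, the number past 1 on chromosomes other than chromosome 1 went from 59 to 43. Without Ctrl replicate 2 the lower calls fell to 1977, with 273 higher.

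Much of that imbalance moved with the scale. The signal recognition particle RNA 7SL and the transcription regulator 7SK, both short and very abundant, took 26.4, 26.2 and 27.2% of the TPM in the knockout libraries and 24.2, 22.9 and 25.7% in the controls. The groups did not overlap, and the two-sided exact permutation test gave p = 0.1, the smallest that 3 libraries against 3 allow. Nuclear protein-coding genes made up 49.2, 48.8 and 48.8% in the knockout and 54.1, 53.7 and 51.0% in the controls, again without overlap. Mitochondrial genome transcripts stood at 9.71% ± 0.497 against 8.75% ± 0.531 (SD, n = 3 each; exact permutation p = 0.2). Small RNAs other than 7SL and 7SK stood at means of 4.42% and 4.35% (exact permutation p = 0.8). A higher share in one class lowers the TPM of all other genes, and a share of TPM is no share of reads, because TPM divides by length.

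**Figure D1:**
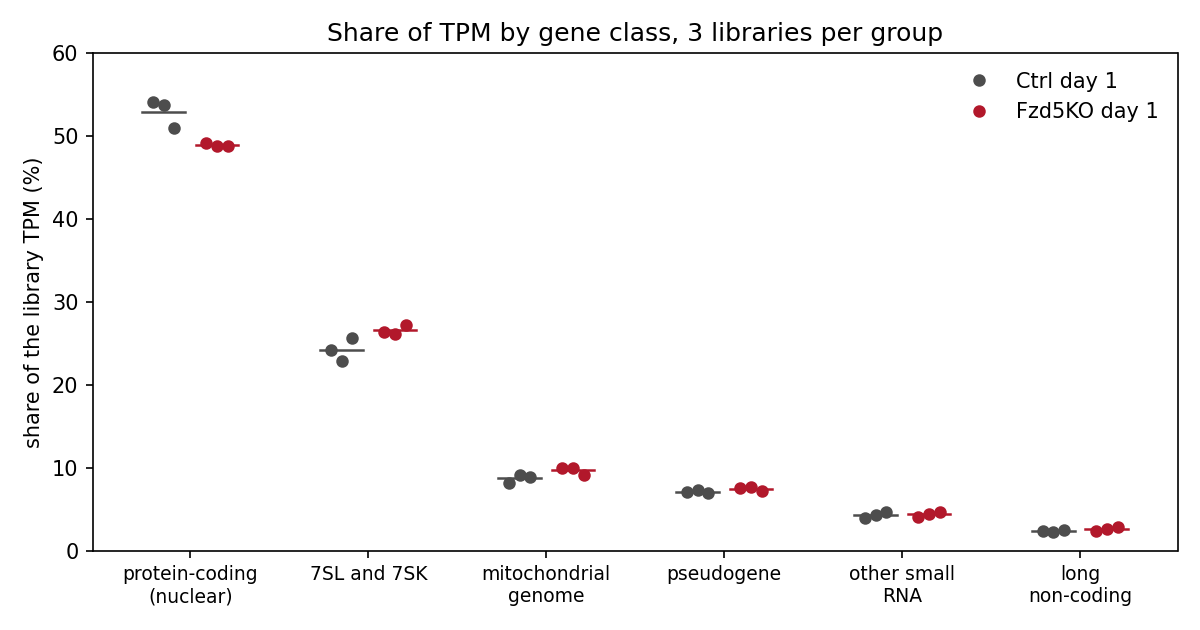
Share of the library TPM (%) held by 6 gene classes; each point is 1 library, the bars are group means, grey is Ctrl day 1 and red Fzd5KO day 1. The 7SL and 7SK share lay above every control in all 3 knockout libraries, and the protein-coding share below every control.

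Taking 7SL and 7SK out and rescaling moved the median gene from −0.14 to −0.10, with 426 genes higher and 2169 lower. Taking out all small RNA biotypes also left it at −0.10 (500 higher, 2334 lower). Rescaling to nuclear protein-coding genes moved it to −0.044 (756 and 1201), or to −0.054 with Gm10800 also left out (737 and 1404), an alternative chosen after the data were seen. Quantile normalization (886 and 969) and median-of-ratios scaling (1272 and 929), which centre the typical gene, brought it to −0.00085 and 0.00078. The share of calls that were higher was 8.65% as deposited, 16.4% without 7SL and 7SK, 17.6% without small RNAs and 38.6 and 34.4% on the protein-coding scale. It was 47.8% after quantile normalization and 57.8% under median-of-ratios scaling. Under the deposited TPM and all 6 other scalings, 308 genes were called higher (97.5% of those first called) and 804 lower (24.1%), 2.26% and 5.9% of the genes tested (8.15% in either direction). No gene called with the deposited TPM was called in the opposite direction under any of the other scalings. The split between many lower and few higher genes is therefore relative to the scale, and beside each group of genes below stands the number of its members called the same way under every one of the 7 scales ("on all scales"). That check runs mostly in one direction, because all 6 other scalings moved the median gene upward, by 0.036 to 0.14. Lower calls could be lost that way, while higher calls could hardly be. The 97.5% and 24.1% therefore cannot be compared, and for higher genes the number on all scales adds little to the deposited call.

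**Figure D2:**
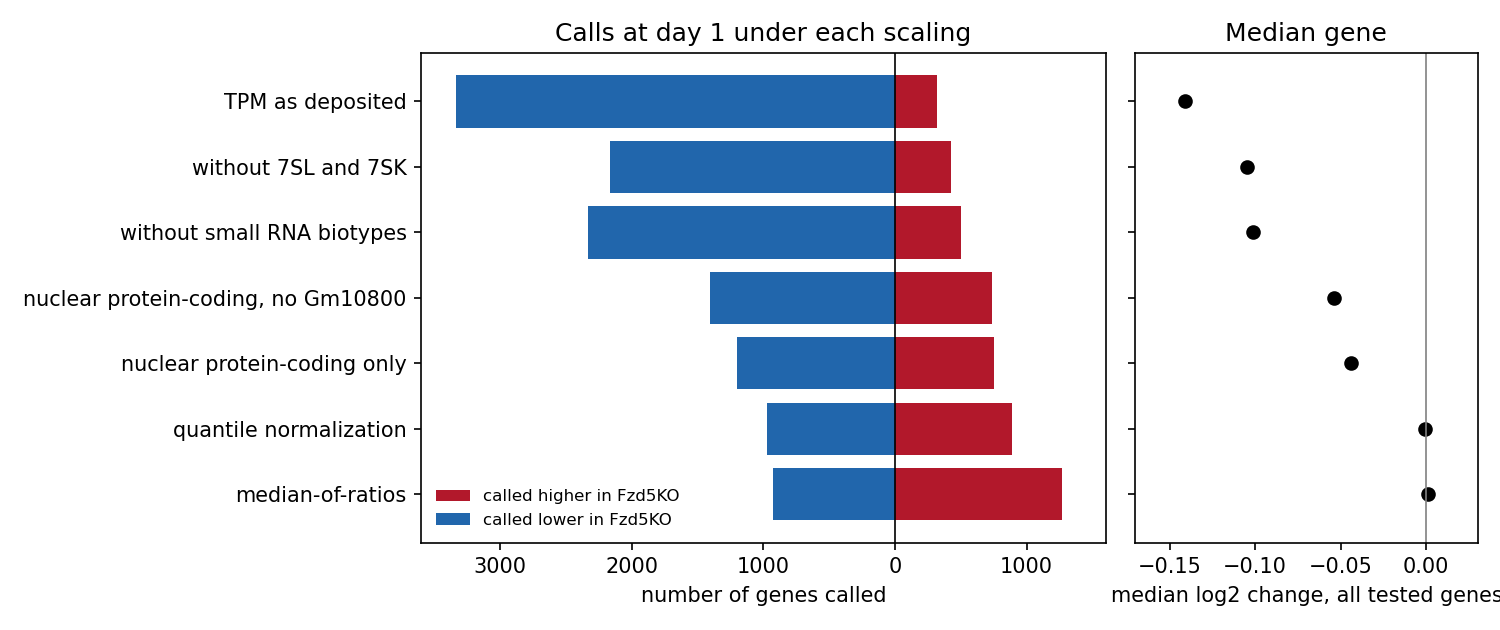
Left, number of genes called higher (red) and lower (blue) in Fzd5KO day 1 under 7 scalings; right, median log2 change of the 13636 tested genes. Lower calls went from 3336 to 929 and higher calls from 316 to 1272 as the median moved from −0.14 to near 0.

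Small RNA genes rarely passed the test. Among 355 tested small RNA genes 3 were higher and 10 lower (2 and 5 on all scales), 3.66% against 26.8% of all genes. Their median was −0.045, with quartiles of −0.46 and 0.30, against −0.26 and −0.027 for all tested genes. Their changes thus spread more widely, and the low share of calls does not mean smaller changes. The 2 copies of 7SL, Rn7s1 and Rn7s2, are identical in GENCODE mouse release 21, so reads cannot be assigned to one or the other. They are the 2 genes with the highest TPM in all 6 libraries. Summed, both copies stood at 220414, 218573 and 229085 TPM in the knockout and at 200429, 188508 and 211738 TPM in the controls, so every knockout library was above every control. Singly, Rn7s2 had a log2 change of 0.18 ± 0.068 (adjusted p = 0.0681) and Rn7s1 of 0.13 ± 0.064 (adjusted p = 0.162); both passed under median-of-ratios scaling (adjusted p = 0.00973 and 0.0176) and on the protein-coding scale (0.0165 and 0.0414). Rn7sk, the single 7SK gene tested, stood at 43168, 43397 and 42572 TPM against 41112, 40245 and 44860 TPM, and its groups overlapped. Rpph1, the RNA of ribonuclease P, which trims transfer RNA precursors, was at 11076, 10803 and 10934 TPM against 6985, 8687 and 9750 TPM (log2 change 0.38 ± 0.106, adjusted p = 0.0222). That call was lost with no filter on low genes (adjusted p = 0.0809), with quantile normalization (0.0595) and without Ctrl replicate 1 (0.0516) or any 1 knockout library (0.0525 to 0.0606). Rmrp, the RNA of a related ribonuclease, has 2 entries in the table, which were not called. One, annotated as a ribozyme, had a log2 change of −0.048 ± 0.18. The other, annotated as a lincRNA, had one of 0.56 ± 0.26 (adjusted p = 0.135), with no overlap between groups, and was called in the fit of the 6 day 1 libraries alone (0.0142) and without day 3 Ctrl replicate 3 (0.0106). Among 41 tested genes for proteins that make or bind these RNAs, 0 were higher and 7 lower, 0 of them on all scales, and the median was −0.10 (4 lower without Ctrl replicate 2).

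The largest changes among abundant small RNAs lay in 2 snRNA genes that are near-copies of each other. Gm25939 fell from 1260, 1322 and 1327 TPM in the controls to 207, 175 and 216 TPM (log2 change −2.71 ± 0.19, adjusted p = 5.68e-06), and Gm25360 rose from 121, 122 and 149 TPM to 618, 621 and 569 TPM (2.20 ± 0.13, adjusted p = 1.48e-06). Both are 191 bases long, lie on the plus strand of chromosome 1 (72255008 to 72255198 and 72226240 to 72226430, GRCm38) and differ at 3 positions, an identity of 98.4%. The differing bases are in capitals: C69T, A95G and C154T, counted from the 5′ end with the base of Gm25939 first.

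Gm25939: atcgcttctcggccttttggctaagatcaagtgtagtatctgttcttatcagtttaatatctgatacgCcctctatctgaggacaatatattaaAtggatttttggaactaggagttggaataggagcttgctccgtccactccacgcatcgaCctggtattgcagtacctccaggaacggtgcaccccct

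Gm25360: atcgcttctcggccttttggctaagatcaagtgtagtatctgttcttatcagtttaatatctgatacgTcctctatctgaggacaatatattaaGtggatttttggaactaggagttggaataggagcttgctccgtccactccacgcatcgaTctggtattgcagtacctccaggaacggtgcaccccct

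They belong to a family of 13 snRNA genes in the table within 10 differences of Gm25939, among them the U2 spliceosomal RNA gene Rnu2-10, named after its value was seen. The other 9 tested members were not called. Summed over the 13, the level was 3389, 3371 and 3140 TPM in the knockout and 3999, 3872 and 4019 TPM in the controls, 0.833 of the control, while the pair alone stood at 0.560 of the control. Reads that do not cover a differing base cannot be assigned to a copy. Of 354 tested small RNA genes with a sequence, 97 (27.4%) had another gene within 5% of differing bases.

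Fzd5, the gene named by the labels, lay at 31.9, 33.1 and 33.1 TPM in the knockout and at 43.5, 49.4 and 46.8 TPM in the controls. It fell by 0.50 ± 0.055 on the log2 scale (adjusted p = 0.000133), was called lower on all scales and ranged from −0.54 to −0.45 as single libraries were left out. The labels do not say which part of the gene was removed. Transcripts from a remaining part, or from cells that kept the gene, would still be counted. The source of the remaining level was not tested. Large changes were more frequent near the gene. Within 10 Mb of it 6 of 110 tested genes were called with a change of over 1 (5.45%), against 4 of 743 (0.538%) on the rest of chromosome 1 and 59 of 12768 (0.462%) on the other chromosomes, a limit chosen after the values were seen. Without genes tested through 1 group only, the counts were 5 of 107 (4.67%), 2 of 728 (0.275%) and 43 of 12632 (0.340%). The 6 were the snRNA pair above, 7.52 and 7.49 Mb away, the neighbours Mettl21a (3.23 ± 0.094) and 2810408I11Rik (4.22 ± 0.11), which rose, Ccnyl1 (−1.11 ± 0.105) and the pseudogene Gm15793, at 3.50, 3.73 and 3.41 TPM in the controls and listed at 0 in every knockout library, so tested only through the controls. Reads of 2810408I11Rik and Ccnyl1, which lie on opposite strands and overlap, may not be told apart, because the sources used here give no strand setting for the counting.

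Receptors, co-receptors and targets of the Wnt pathway were mostly lower. Of 5 other Frizzled receptors tested, 4 were lower, 1 of them on all scales: Fzd7 fell from 5.41, 6.39 and 5.53 TPM to 3.53, 3.58 and 4.09 TPM (−0.52 ± 0.089, adjusted p = 0.00212). Fzd6, Fzd1 and Fzd4 changed by −0.60, −0.37 and −0.28 from control levels of at most 3.41 TPM. Fzd1 was tested only through the controls, which leaves 3 of 4 lower without it. The count of 4 went to 1 without Fzd5KO replicate 1, 2 or 3 or Ctrl replicate 2 or 3, to 2 without Ctrl replicate 1, and among the day 3 libraries to 1 without Fzd5KO replicate 3 and to 2 without Ctrl replicate 2. Of 10 co-receptors and R-spondin receptors 8 were lower (5 on all scales; median −0.42 against −0.14 for all genes). Lgr5, the R-spondin receptor that marks stem cells, had 1.12, 0.75 and 0.82 TPM against 4.61, 4.57 and 3.74 TPM, so no libraries overlapped. Its relative Lgr4 fell by 0.44 ± 0.049, the co-receptor Lrp6 by 0.35 ± 0.040, and Rnf43, a ubiquitin ligase that removes Frizzled receptors from the surface, by 0.44 ± 0.064. Wls, which carries Wnt ligands to the cell surface, fell by 0.57 ± 0.075, and 22 of 24 ligand and secretion genes were below the level for testing.

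Among 20 tested genes of the cytoplasmic machinery 9 were lower, 0 of them on all scales, with a median of −0.22 that went to −0.061 with median-of-ratios scaling. Apc, the scaffold of the beta-catenin destruction complex, was at 30.7, 31.3 and 33.3 TPM against 39.5, 37.4 and 40.4 TPM (−0.29 ± 0.049, adjusted p = 0.00186). Ctnnb1, which encodes beta-catenin, was at 262, 258 and 249 TPM against 281, 271 and 265 TPM (−0.086 ± 0.036, adjusted p = 0.1). The machinery count was 3 without Ctrl replicate 2 and 4 or 5 without 1 of the knockout libraries.

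Of 17 tested beta-catenin targets 10 were lower and 1 higher, 6 and 1 on all scales, with a median of −0.31. Without Tnfrsf19, which was tested only through the controls, 9 of 16 were lower and 1 higher, 5 and 1 on all scales, with a median of −0.30. Axin2, a feedback inhibitor, was at 22.9, 19.4 and 19.4 TPM against 37.2, 36.2 and 36.1 TPM (−0.80 ± 0.082, adjusted p = 7.56e-05). The stem cell transcription factor gene Ascl2 fell by 1.03 ± 0.12. The 1 higher member was the cyclin gene Ccnd1, named after its value was seen (0.41). Myc, a regulator of growth also named after its value was seen, had a log2 change of 0.042 and was not called. The TCF/LEF motif CTTTGAT, searched on both strands in the 250 bases before the RefSeq start sites (GRCm38.p6), occurred for 3 of 11 tested targets with a promoter in the table (27.3%; Sp5, Mmp7 and Tnfrsf19) and for 1 of the 8 lower ones, against 3.72% of 27025 genes and 2.89% of tested protein-coding genes. The match among the lower targets lies before the second start of Tnfrsf19, whose call carries the limit above (chr14:61037988-61038237, minus strand). It is shown with the motif in capitals beside the stretch before Axin2 (chr11:108920099-108920348, plus strand), which holds no match in this window.

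Tnfrsf19: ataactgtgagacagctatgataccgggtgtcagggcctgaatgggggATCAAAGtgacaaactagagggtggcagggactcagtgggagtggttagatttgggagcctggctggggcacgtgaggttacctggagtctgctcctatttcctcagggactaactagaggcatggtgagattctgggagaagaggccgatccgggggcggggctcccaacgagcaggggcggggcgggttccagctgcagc

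Axin2: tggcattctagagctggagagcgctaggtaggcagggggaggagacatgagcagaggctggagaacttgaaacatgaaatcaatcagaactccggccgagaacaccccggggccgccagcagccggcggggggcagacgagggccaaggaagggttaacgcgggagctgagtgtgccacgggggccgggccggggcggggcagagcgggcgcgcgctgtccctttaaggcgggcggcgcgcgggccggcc

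Crypt-base stem cell markers changed together. Several of them, among them Lgr5, Ascl2, Rnf43 and Tnfrsf19, also count in the Wnt lists above, so these results are not separate. Of 28 markers 26 were tested, of which 21 were lower, 19 on all scales, and 0 higher. Their median was −0.77, all 26 lay below 0, and the summed level was 400 to 418 TPM in the knockout against 868 to 918 TPM. Without 2 genes tested only through the controls 19 of 24 were lower, 17 on all scales, with a median of −0.71. Olfm4, a secreted glycoprotein of stem cells, was at 45.5, 45.8 and 46.0 TPM against 288, 289 and 276 TPM (−2.61 ± 0.041), 6.22-fold lower, the largest such fold among protein-coding genes called lower with a control mean of at least 5 TPM. Clca3b, a calcium-activated chloride channel regulator, had 84.5, 78.2 and 81.7 TPM against 176, 182 and 169 TPM. The RNA-binding protein gene Msi1 fell by 1.28 ± 0.093, Slc12a2, the cotransporter that loads crypt cells with chloride, by 0.90 ± 0.047, and Igfbp4, a binding protein of insulin-like growth factors, by 1.27 ± 0.16. None of the 6 libraries crossed between groups for these genes.

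Markers of goblet and enteroendocrine cells were lower as well, while those of Paneth and tuft cells stood closer to all tested genes. All 24 goblet cell markers were tested, with 22 lower (17 on all scales), 0 higher, a median of −0.60 and a summed level of 7287 to 7538 TPM against 10930 to 11883 TPM. Fcgbp, a mucus protein, was at 1065, 1060 and 997 TPM against 1999, 1998 and 1881 TPM, and Clca1, a mucus-processing metalloprotease, at 184, 185 and 177 TPM against 353, 378 and 326 TPM. Zg16, a lectin of mucus granules, fell by 0.88 ± 0.041, Muc2, the main secreted mucin, by 0.78 ± 0.045, and Atoh1, the transcription factor that opens the secretory fate, by 0.46 ± 0.087. Of 24 enteroendocrine markers 14 were lower (6 on all scales; median −0.41; 13 of 23 without a gene tested only through the controls), with the hormone genes Ghrl at −0.71 ± 0.13 and Gcg at −0.67 ± 0.078. Of 22 Paneth cell markers 12 were lower and 1 higher, 4 and 1 on all scales, with a median of −0.22 (−0.073 under median-of-ratios scaling). Without a gene tested only through the controls 11 of 21 were lower, 3 on all scales. The Paneth markers differed in the size of their change, and 20 of the 22 lay below 0. The defensin Defa31, one of several near-identical copies, fell by 2.42 ± 0.37. Lyz1, lysozyme, fell less, with 2580, 2510 and 2590 TPM against 3134, 3146 and 2900 TPM (−0.26 ± 0.040). Its call was lost under quantile normalization and under median-of-ratios scaling. Of 15 tuft cell markers 3 were lower, 2 on all scales, and their marker Dclk1 was not called (−0.039 ± 0.19). Of 18 secretory transcription factors 11 were lower (4 on all scales; 10 of 17 without a gene tested only through the controls; 7 without Fzd5KO replicate 1 or 2 or Ctrl replicate 2), among them Sox4 (−0.65 ± 0.074) and Pax6 (−0.66 ± 0.12).

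**Figure D3:**
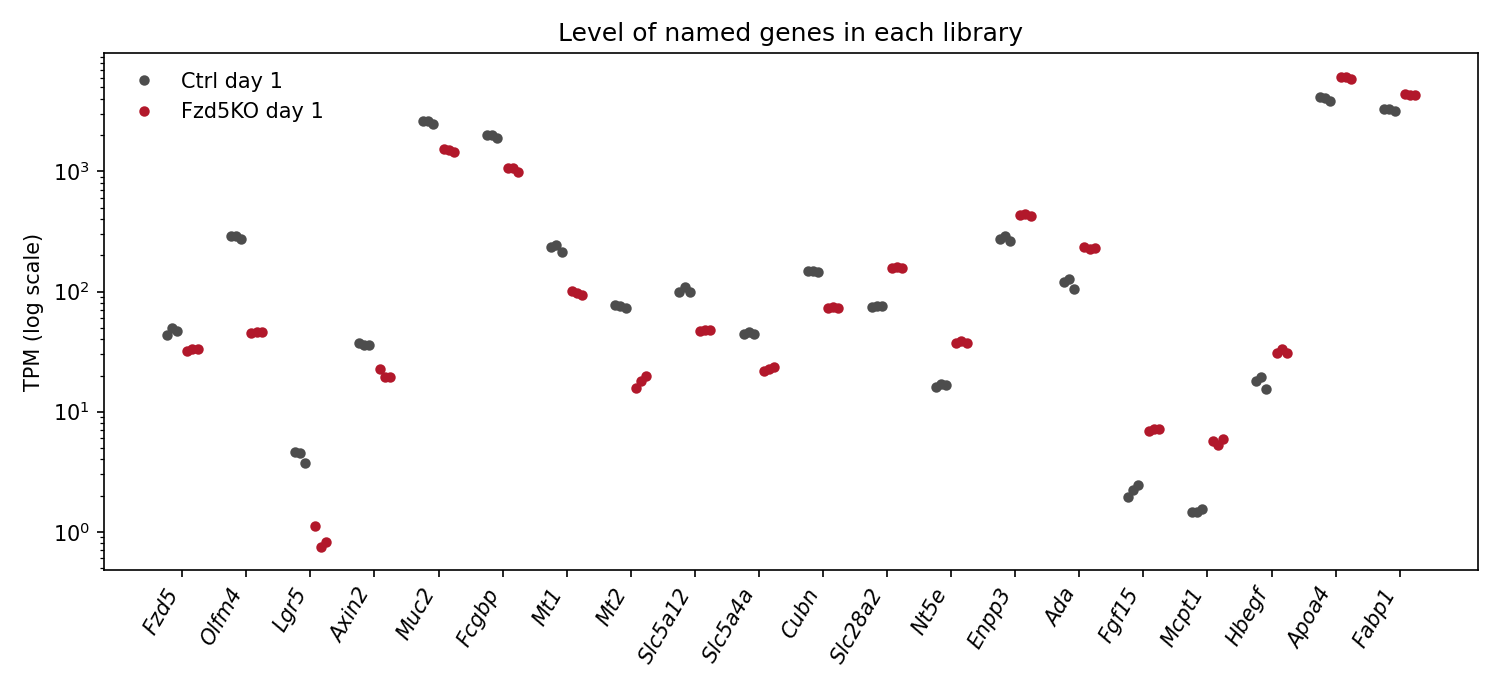
Level (TPM, log scale) of 20 named genes in each library, grey Ctrl day 1 and red Fzd5KO day 1. Every knockout point lies outside the range of the controls, from 45.5 to 46.0 against 276 to 289 TPM for Olfm4 and from 157 to 159 against 74.7 to 75.5 TPM for Slc28a2.

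Genes of the villus tip that handle nucleosides were among those that rose. Of 17 tested villus-tip genes 8 were higher and 3 lower, 7 and 0 on all scales, with a median of 0.22 and a summed level of 16035 to 16706 TPM against 12529 to 13107 TPM. Slc28a2, a sodium-coupled purine nucleoside carrier, was at 157, 159 and 157 TPM against 74.7, 75.5 and 75.2 TPM (1.06 ± 0.034, adjusted p = 7.29e-09). Nt5e (CD73), which makes adenosine from AMP at the cell surface, was at 37.6, 38.4 and 37.3 TPM against 16.1, 16.9 and 16.8 TPM (1.14 ± 0.045). Ada, which deaminates adenosine, was at 235, 226 and 229 TPM against 121, 127 and 106 TPM (0.96 ± 0.061). No library crossed between groups for these 3 genes. Enpp3, an ectonucleotide pyrophosphatase, rose by 0.65 ± 0.037. Slc28a2, Nt5e, Ada and Enpp3 count in both the villus-tip and the purine list. Among all 22 tested purine genes 6 were higher and 4 lower, 6 and 1 on all scales, with a median of −0.046 (10 and 1 under median-of-ratios scaling), and the lower count was 2 without Fzd5KO replicate 3.

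Other rises came from unrelated functions. Fgf15, the gut hormone that represses bile acid synthesis in the liver, was at 6.86, 7.23 and 7.13 TPM against 1.96, 2.24 and 2.47 TPM (1.33 ± 0.072, adjusted p = 6.71e-07). Hbegf, a ligand of the EGF receptor, was at 31.0, 33.2 and 30.9 TPM against 18.1, 19.5 and 15.4 TPM (0.81 ± 0.099). S100g, a cytosolic calcium-binding protein of absorptive cells, rose by 0.71 ± 0.089 and the glutamate transporter Slc1a3 by 0.81 ± 0.085. Further genes among the 15 largest rises were Paqr7 (0.92), a membrane progestin receptor, Scgb2b17 (0.99), Sult6b2 (0.74), Akr1b8 (0.72), Ankrd37 (0.94) and the chemokine Xcl1 (0.90), besides the mast cell protease gene Mcpt1.

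Genes of nutrient uptake were lower as a group. Of 29 tested transporters of sugars, amino acids and peptides 23 were lower (17 on all scales) and 0 higher, with a median of −0.31 and a summed level of 3207 to 3252 TPM against 3923 to 4186 TPM. Slc5a4a, of the sodium-glucose cotransporter family, was at 21.9, 22.6 and 23.5 TPM against 44.7, 45.7 and 44.1 TPM (−0.95 ± 0.045), and its neighbour Slc5a4b fell by 0.74 ± 0.042. Slc15a1, the peptide transporter PepT1, was at 371, 370 and 361 TPM against 494, 497 and 477 TPM (−0.41 ± 0.031). The lactate and monocarboxylate carrier Slc5a12, outside that list, was at 46.6, 47.7 and 48.2 TPM against 100, 110 and 99.5 TPM (−1.10 ± 0.042). Over all 209 tested solute carrier genes 10 were higher and 82 lower, 10 and 40 on all scales, with a median of −0.16.

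Of 18 brush border hydrolases 15 were lower (9 on all scales) and 0 higher, with a median of −0.32. Enpp7, the sphingomyelinase of the brush border, was at 378, 373 and 362 TPM against 535, 529 and 495 TPM (−0.48 ± 0.036), and the peptidase gene Enpep fell by 0.39 ± 0.035. Sis, sucrase-isomaltase, fell by 0.43 ± 0.031 and lost its call with quantile normalization (adjusted p = 0.275). Alpi, alkaline phosphatase, was at 449, 452 and 440 TPM against 459, 478 and 439 TPM and was not called. Genes for the structure of the brush border moved less: 2 of 24 were higher and 8 lower, 2 and 1 on all scales, with a median of −0.10. The 29 absorptive enterocyte markers, which share members with these lists, went both ways. Among them 5 were higher and 17 lower, 4 and 10 on all scales, with a median of −0.22 (−0.063 under median-of-ratios scaling). Their summed level was 36698 to 37861 TPM against 35115 to 36815 TPM, so the groups overlapped. Cubn, the receptor for vitamin B12 bound to intrinsic factor, was at 72.9, 74.1 and 72.6 TPM against 147, 148 and 145 TPM (−0.99 ± 0.032, adjusted p = 7.29e-09).

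Lipid and metabolic genes went both ways. Of 29 tested genes of fat absorption 4 were higher and 9 lower, 3 and 2 on all scales (5 lower without Ctrl replicate 2). The balance turned with the scale, to 13 higher and 2 lower under median-of-ratios scaling and 9 and 4 on the protein-coding scale. Apoa4, an apolipoprotein of chylomicrons, was at 6166, 6084 and 5835 TPM against 4174, 4098 and 3884 TPM (0.57 ± 0.041), and the fatty acid-binding protein gene Fabp1 rose by 0.42 ± 0.030, while its relative Fabp2 fell by 0.32 ± 0.038. Acadl, of mitochondrial fatty acid oxidation, rose by 0.64 ± 0.063, and Fads1, a fatty acid desaturase, fell by 0.76 ± 0.071. Of 37 enzymes and transporters of foreign compounds 23 were lower and 2 higher, 15 and 2 on all scales, with Cyp2c55 at −0.96 ± 0.063, Gstm1 at −0.59 ± 0.053 and the efflux pump Abcb1a at −0.32 ± 0.029. Of 28 genes of ion and water transport 19 were lower and 4 higher, 10 and 4 on all scales. The 4 higher ones include Clca4a (0.38 ± 0.041) and S100g.

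The metallothioneins, small proteins that bind zinc and copper, fell steeply. Mt2 was at 15.6, 17.8 and 19.8 TPM against 76.9, 75.8 and 72.8 TPM (−2.03 ± 0.13, adjusted p = 2.19e-06) and Mt1 at 100, 98.1 and 94.3 TPM against 236, 245 and 214 TPM (−1.24 ± 0.055). Of the 16 tested metallothionein and zinc transporter genes 5 were lower and 1 higher, 3 and 1 on all scales, and the zinc transporter gene Slc30a2 fell by 0.39 ± 0.063. The median of the list was −0.10.

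**Figure D4:**
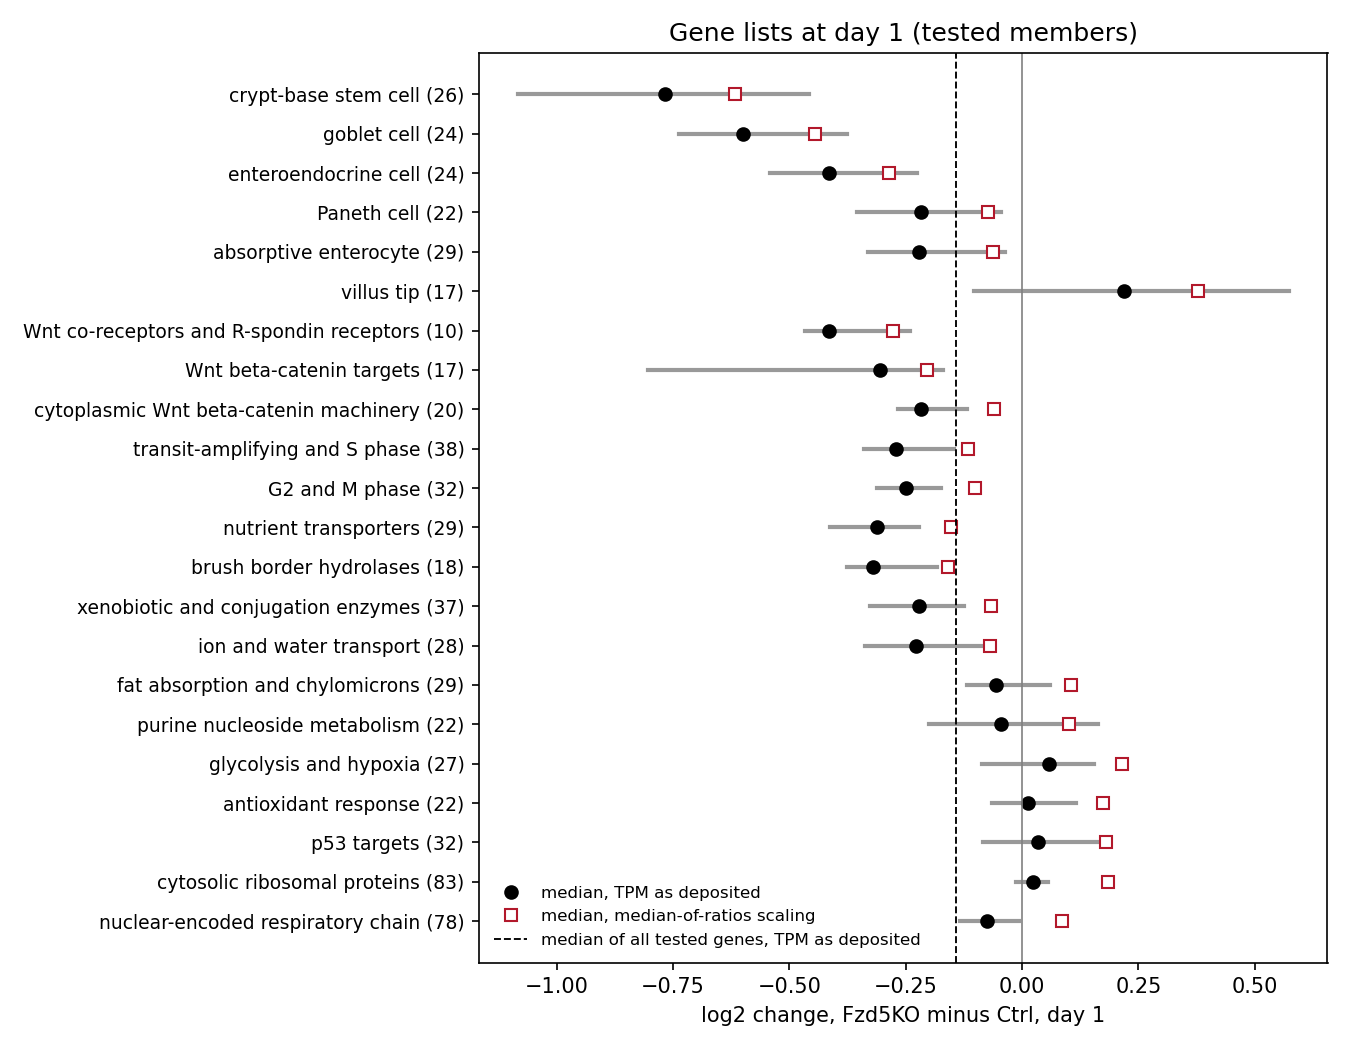
Median log2 change (black points) and interquartile range (grey bars) of the tested members of 22 gene lists, with the median under median-of-ratios scaling (red squares); numbers of members are in brackets and the dashed line is the median of all tested genes. Stem cell, goblet cell and enteroendocrine lists lie left of the dashed line on the deposited scale and below 0 on the other, while the villus tip list lies above 0 on both.

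The counts of several broad lists depended on the scale. Of 38 S phase genes 19 were lower (7 on all scales), with a median of −0.27, and of 32 G2 and M phase genes 19 were lower (4 on all scales), with a median of −0.25. Uhrf1, which maintains DNA methylation after replication, fell by 0.55 ± 0.070, the thymidine kinase gene Tk1 by 0.51 ± 0.062 and the topoisomerase gene Top2a by 0.31 ± 0.047. The proliferation marker Mki67 was at 42.8, 42.6 and 42.8 TPM against 51.9, 53.4 and 54.4 TPM (−0.31 ± 0.047). These counts went to 10 and 9 without Ctrl replicate 2 and to 9 and 8 without Fzd5KO replicate 2, and the second to 10 without Fzd5KO replicate 3. Of 83 cytosolic ribosomal protein genes 5 were higher, all on all scales, and 0 lower as deposited, but 66 were higher with median-of-ratios scaling and 50 on the protein-coding scale. The count of 5 went to 2 without Fzd5KO replicate 1 or 3 or Ctrl replicate 2 or 3. Nuclear-encoded respiratory chain genes turned: 2 were higher and 20 lower of 78 as deposited (2 and 0 on all scales), against 21 higher and 0 lower with median-of-ratios scaling. Their lower count was 7 without Fzd5KO replicate 3 or Ctrl replicate 2, 9 without Fzd5KO replicate 2, 12 without Ctrl replicate 1 and 13 without Fzd5KO replicate 1.

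Stress and metabolic response genes were mixed and small. Of 27 genes of glycolysis and hypoxia 10 were higher and 4 lower, 10 and 1 on all scales, with a median of 0.058 (1 or 2 lower without any 1 of the 6 libraries; 17 higher and 1 lower under median-of-ratios scaling; 10 and 3 without a gene tested only through the controls). The hypoxia-inducible genes Ankrd37 and Slc16a3, a lactate exporter, rose by 0.94 ± 0.13 and 0.41 ± 0.079, while Ndrg1 fell by 0.57 ± 0.048. Of 22 antioxidant genes 4 were higher, all on all scales, and 1 lower (12 and 0 under median-of-ratios scaling), led by the peroxiredoxin Prdx6 (0.40 ± 0.046) and the gut glutathione peroxidase Gpx2 (0.27 ± 0.041). Among 32 p53 targets 3 were higher and 3 lower, 3 and 1 on all scales, but 13 and 1 under median-of-ratios scaling, 12 and 1 after quantile normalization and 9 and 1 on the protein-coding scale. Cdkn1a, which encodes the cell cycle inhibitor p21, was called under 5 of the 6 other scalings (0.26 with adjusted p = 0.00169 under median-of-ratios scaling) and not as deposited. Ccng1 (cyclin G1) rose by 0.37 ± 0.040 and Ddb2, of DNA repair, fell by 0.60 ± 0.098. Of 38 cell death genes 8 were higher, all on all scales, and 8 lower, 0 on all scales, against 17 and 0 under median-of-ratios scaling (8 and 7 as deposited without a gene tested only through the controls). The pore-forming gasdermin gene Gsdmd was at 261, 269 and 266 TPM against 222, 230 and 219 TPM (0.25 ± 0.033). The lower count was 2 without Fzd5KO replicate 2 or Ctrl replicate 2, 4 without Fzd5KO replicate 1 or 3 or Ctrl replicate 3 and 5 without Ctrl replicate 1, and the higher one 5 without Ctrl replicate 2.

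Defence genes went both ways. Of 20 antimicrobial and mucosal defence genes 6 were higher and 6 lower, 6 and 3 on all scales (10 and 3 under median-of-ratios scaling; median 0.068). The lectin Reg3b was at 612, 609 and 611 TPM against 439, 428 and 382 TPM (0.55 ± 0.050) and its relative Reg1 at 11.2, 14.2 and 14.3 TPM against 30.8, 26.7 and 25.6 TPM (−1.01 ± 0.12). Of 46 interferon-stimulated genes 22 were lower and 3 higher, 9 and 3 on all scales (14 lower without Ctrl replicate 2; 21 lower and 3 higher without genes tested only through the controls). Oas1a, an antiviral sensor, fell by 0.74 ± 0.091. Ifitm3, which blocks viral entry and is not on that list, fell by 1.11 ± 0.070. Of 9 MHC class II genes 6 were lower (3 on all scales), led by H2-Aa (−0.76 ± 0.061).

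Markers of cells other than epithelium moved with the knockout too, and their part in these results was not tested. Of 21 tested T cell and intraepithelial lymphocyte markers 8 were lower and 0 higher, with a summed level of 191 to 221 TPM in the knockout against 278 to 309 TPM (5 lower on all scales; 5 lower without Fzd5KO replicate 2 or 3 or Ctrl replicate 2 or 3). The granzyme gene Gzma was at 68.0, 58.8 and 69.5 TPM against 99.7, 109 and 109 TPM. B and plasma cell markers summed to 25.8 to 27.1 against 40.5 to 50.3 TPM, with 4 of 6 lower (2 on all scales, 2 without Ctrl replicate 2, and 3 of 5 without a gene tested only through the controls) and Tnfrsf17 at 0 in all 6 libraries. Mast cell markers went the other way for the proteases Mcpt1 (5.70, 5.28 and 5.93 against 1.46, 1.46 and 1.55 TPM) and Mcpt2 (0.84 ± 0.12, tested only through the knockout), both on all scales, while Kit fell by 0.45 ± 0.097, not on all scales. The list summed to 12.4 to 12.7 against 7.75 to 9.39 TPM. Fibroblast and smooth muscle markers summed to 14.3 to 17.6 against 22.1 to 27.6 TPM (2 of 6 lower, 1 on all scales) and erythroid markers to 54.2 to 67.7 against 88.5 to 109 TPM (3 of 4 lower, 2 on all scales). Myeloid markers summed to 17.5 to 19.9 against 19.5 to 22.1 TPM, with 0 of 6 called and S100a8 at 0.

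Among the larger gene classes outside protein-coding genes, the share called lower was 25.6% for TEC genes (transcripts awaiting experimental checks), 17.8% for long non-coding genes and 7.89% for pseudogenes, beside 24.5% of all tested genes. Of 687 long non-coding genes 14 were higher and 122 lower (12 and 42 on all scales; median −0.16), of 621 pseudogenes 12 and 49 (10 and 16; median −0.13), and of 605 TEC genes 6 and 155 (5 and 34; median −0.23). These class counts include any genes tested through 1 group only and were not repeated without them. The mitochondrial genome had 1 higher gene and 0 lower of 15 tested (0 on all scales). A few genes were nearly absent from 1 group. The pseudogene Gm6969 was at 0.76, 0 and 1.03 TPM in the knockout against 94.9, 91.2 and 86.6 TPM, and the lincRNA gene Gm42047 at 5.51, 5.40 and 4.76 against 59.8, 65.1 and 61.5 TPM. Gm27399, annotated as a miRNA, was listed at 0 in all knockout libraries against 24.1, 25.3 and 24.2 TPM. The pseudogene BC064078 went the other way, with 5.57, 5.27 and 4.92 against 0.10, 0.10 and 0.13 TPM. Both of these were tested through 1 group only. The antisense transcript Gt(ROSA)26Sor, from a locus often used to house transgenes, was at 6.49, 6.15 and 6.24 TPM against 13.9, 12.8 and 14.3 TPM (−1.01 ± 0.075, adjusted p = 8.18e-06). The labels name no transgene.

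Among protein-coding genes the change also followed transcript length, a description chosen after the data were seen. Split into 5 equal groups by the longest annotated transcript (11314 genes with a length), the median went from −0.079 in the group of shortest transcripts (median length 1353 bases) through −0.11, −0.14 and −0.16 to −0.19 in the longest (6667 bases), and the share called lower from 14.9 to 40.1%. With median-of-ratios scaling the same medians went from 0.069 to −0.041. Within the controls, Ctrl replicate 1 minus the mean of replicates 2 and 3 went from −0.0011 to −0.029 over the same groups. By level, the medians went from −0.18 in the lowest of 5 groups of mean TPM to −0.099 in the highest. The part of length in the changes of single genes and lists was not tested. By chromosome the medians lay between −0.12 on chromosome 11 and −0.17 on X.

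**Figure D5:**
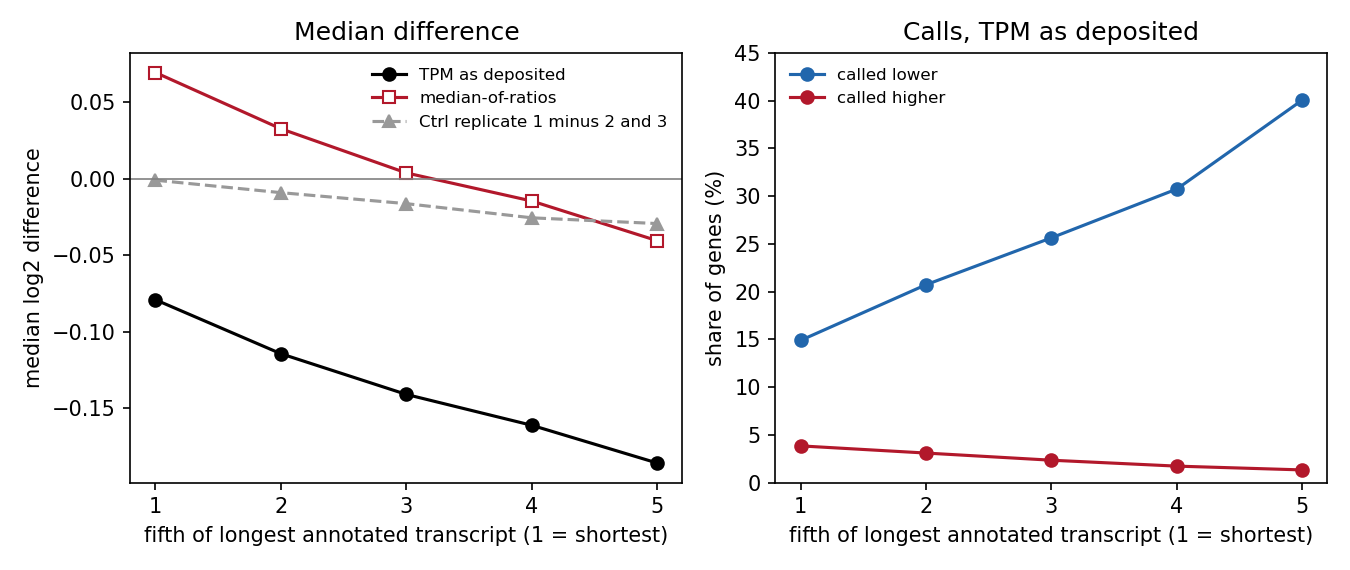
Left, median log2 difference in 5 groups of the longest annotated transcript for Fzd5KO minus Ctrl as deposited (black), with median-of-ratios scaling (red) and for Ctrl replicate 1 minus the other 2 controls (grey); right, share of genes called (%). The share called lower went from 14.9 to 40.1% and the share called higher from 3.84 to 1.33% from the shortest to the longest group.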

How the data were processed

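Total RNA of mouse jejunal epithelial cells was sequenced in 12 libraries, 3 for each of 2 genotypes at day 1 and day 3. Per the submitters' processing notes, bcl2fastq 2.18, STAR 2.7.3a, RSEM and the build mm10 were used. The authors deposited 1 table of TPM values for 55421 genes, without counts, so depth, and the precision it gives, is unknown. No column of another sample was used (0 such columns). Biotypes and positions came from GENCODE mouse release 21 (GRCm38), which matched 55240 gene IDs and missed 181.

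Differences of log2(TPM + 1) were fitted with limma 3.58.1 (R 4.3.3) as 4 group means over all 12 libraries with a mean-variance trend, and p-values were Benjamini-Hochberg adjusted over the 13636 tested genes. The script was checked on simulated data. Shares of TPM were compared with exact permutation tests. Python 3.11.15 with matplotlib 3.10.9 drew the figures. The gene groups and lists were chosen with earlier results of these data known, so their directions are no independent evidence. Some lists share members, which count in each of them. Named genes were the 15 largest rises and 15 largest falls (groups not overlapping, the higher one averaging 5 TPM or more, predicted genes left out), up to 4 called members of each list with the smallest p, a set of marker genes named whatever their result, the 10 most abundant small RNAs and the leading genes of each biotype class. Others are said to be chosen after their values were seen, and a few items are not reported here. Alternatives were 6 scalings, 2 pseudocounts, 2 filters, 2 ways of estimating the spread, fits of the 6 day 1 libraries alone or with replicate number as a block, and leaving out each library.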

Additional observations from a re-analysis of the deposited data

Results flagged for a closer look

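Of the marker genes reported here whatever their result, 16 had a knockout effect that differed between the days by limma's interaction test at an adjusted p under 0.05, as did 45.7% of all 13636 tested genes. Values are the log2 change at day 3 minus that at day 1, so a negative value means that knockout minus control was more negative at day 3. Crypt and secretory genes had negative values: Olfm4 −1.52, Ascl2 −1.28, Axin2 −0.81, Fzd5 −0.24, the Paneth lysozyme Lyz1 −1.17, the enteroendocrine granule gene Chga −1.51, the tuft cell kinase Dclk1 −2.34, the Notch target Hes1 −0.51 and the proliferation marker Mki67 −0.66. The goblet cell mucin Muc2 had a value of 0.52, in the other direction. Positive values were also found for the absorptive genes Sis (1.91) and Alpi (1.21), for Ctnnb1 (0.32), for the cell cycle inhibitor Cdkn1a (0.91), for Clu (0.63) and for Ly6a (3.22), which marks regenerating epithelium. The interaction was fitted on the deposited TPM only, so small values such as those of Fzd5 and Ctnnb1 may move with the scale. No cause of these differences was tested.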

How the results depend on the processing

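The median gene stayed below 0 under every setting run except median-of-ratios scaling, while the counts depended on the scale. Rescaling without 7SL and 7SK gave 2169 lower genes and a median of −0.10, without small RNAs 500 higher and a median of −0.10, to protein-coding genes 756 higher, 1201 lower and −0.044, and the same without Gm10800 737, 1404 and −0.054. Quantile normalization gave 886, 969 and −0.00085, and median-of-ratios scaling 1272, 929 and 0.00078. The median was −0.098 at a pseudocount of 5 and −0.054 with no filter. Leaving out single libraries gave 227 to 338 higher genes, 1977 to 3406 lower genes, a median between −0.15 and −0.12, an Fzd5 change between −0.54 and −0.45, and a difference in the 7SL and 7SK share between 1.67 and 3.06 percentage points (2.34 as reported). Alpi reversed with median-of-ratios scaling (0.12, adjusted p = 0.0111, against −0.037). The labels give both groups replicate numbers, but same-numbered libraries did not deviate together (correlations −0.033, 0.017 and −0.081), and with the replicate block 302 genes were higher and 3183 lower. The 6 day 1 libraries alone gave 292 and 2784. Depth is unknown, 3 libraries a group limit the precision, and a change of a gene near 1 TPM rests on few reads.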

Other observations

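Several of the steepest differences at day 1 were absent or turned at day 3, where the same genotypes were compared in other libraries. The pseudogene Gm6969, at a mean of 90.9 TPM in the day 1 controls and near 0 in the knockout, was at 84.8 TPM in the day 3 knockout and 103 TPM in its controls. Gm42047 was at 34.4 against 40.3 TPM, and Gm27399, seen only in the day 1 controls, was listed at 0 in all 6 day 3 libraries. The metallothionein gene Mt2 stood at 12.1 TPM in the day 3 knockout and 13.8 TPM in its controls, both near the day 1 knockout level of 17.7 TPM, so its control level was high at day 1 only. The monocarboxylate carrier gene Slc5a12 turned, from 47.5 against 103 TPM at day 1 to 76.5 against 27.9 TPM at day 3 (difference of the log2 changes 2.53). The glutamate transporter gene Slc1a3 turned the other way, from 7.98 against 4.13 TPM to 4.66 against 11.5 TPM. The snRNA pair kept its opposite differences (−2.79 for Gm25939 and 2.40 for Gm25360 at day 3, with adjusted p = 0.826 and 0.416 for the difference between days by limma).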
